A study of Mus musculus with 10 samples.

Results

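The mRNAs of 9 genes of the AP-1 and immediate early response were followed in RNA that came down with Musashi1 and Musashi2 from mouse pituitary. They were the Fos family members Fos, Fosb and Fosl2, the Jun family members Jun, Junb and Jund, the transcription factors Egr1 and Atf3, and the antiproliferative gene Btg2. The genes were chosen by symbol, and all 9 were found among the 55416 genes of the count table and passed the filter on low counts. Together they made up 0.0436% to 0.116% of the counts in a library. In the Musashi immunoprecipitate (Musashi IP), Fosl2, Btg2 and Jun were higher than in control IgG, by 2.08-fold, 1.64-fold and 1.63-fold. Fos, the best known member, stood at 0.970-fold of its IgG level and did not pass the test.

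Each lysate was made from 6 pituitaries of adult mice aged 8 to 10 weeks, called controls in the labels, of a sighted FVB strain (FVB.129P2‐Pde6b+Tyrc‐ch/Ant). The labels name no other allele and no treatment. A lysate was divided equally between pooled Musashi1 and Musashi2 antibodies and control rabbit IgG, so that bound RNA of the 2 Musashi proteins cannot be told apart. The IgG libraries hold RNA that came down with a control antibody and are not a measure of total pituitary RNA. The 10 libraries came from 5 lysates, with female lysates 2, 5 and 6 and male lysates 3 and 7. The protocol names 3 occasions per sex, and 1 male pair was therefore not analysed here.

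AP-1 is a dimer of a Jun protein with a Fos, Jun or ATF partner, joined through their leucine zippers, that binds DNA and activates or represses transcription. Fos, Fosb, Jun, Junb, Egr1, Btg2 and Atf3 are immediate early or rapid response genes, transcribed within minutes of a signal such as a growth factor, calcium or cAMP without need of new protein. Their mRNAs are short-lived, and AU-rich elements in the 3′ untranslated region (3′ UTR) are a well studied reason for this. In the pituitary, Egr1 takes part in the gonadotropin-releasing hormone induction of the luteinizing hormone beta gene, and Jun and Fos proteins act on gonadotropin genes. Musashi proteins bind short motifs, mainly in 3′ UTRs, and repress or activate translation of the mRNA.

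The Musashi motif searched was a G or an A, then 1 to 3 times U, then AGU, on the transcribed strand only. The short forms are thus GUAGU and also AUAGU, while GUUAGU or else AUUAGU hold a longer U run and GUUUAGU or AUUUAGU the longest. It was found in the longest annotated 3′ UTR of 6 of the 9 genes (GENCODE release M21). Those of Fos, Fosl2 and Btg2 held 3 matches each, Jun 2, and Junb and Atf3 1 each, while Fosb, Jund and Egr1 held none. The matches of the 3 mRNAs higher in Musashi IP, of Fos as the mRNA with the most matches per kb, and of Junb and Atf3 are shown here 5′ to 3′ with the motif in capitals; the number is its start in nucleotides after the stop codon. The first 2 matches in Fos overlap each other.
Fosl2 502: ggugguccagAUAGUaaagcgcuuuu
Fosl2 1013: cccaacucucAUAGUgacaucaccug
Fosl2 4385: aaaucuuuguAUAGUuuuaaauuuuu
Btg2 758: guauggguggAUAGUgaauaauuuag
Btg2 1044: ucacugugcaAUAGUcccaggaugcu
Btg2 1896: aaaauaagaaAUAGUgguaaguuugu
Jun 386: gauugcuucuGUAGUgcuccuuaaca
Jun 1053: auaggaaagAUUUAGUaauuagcugu
Fos 277: cugagagcugGUAGUuaguagagcau
Fos 280: agagcugguaGUUAGUagagcaugug
Fos 540: uccauguacuGUAGUccuucagcguc
Junb 365: cccccucugcAUAGUacuguggagaa
Atf3 1088: aucccacucaAUAGUaucauuacagu
All matches of Fosl2 and Btg2 were of the form AUAGU, as were those of Junb and Atf3, whereas those of Fos began with G. Jun held GUAGU and AUUUAGU.

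A match to so short a motif is common. Of the 13665 tested genes with a 3′ UTR of at least 100 nt, 73.2% held the Musashi motif, and the median density was 1.51 matches per kb. Fos, with 3 matches in 815 nt, had 3.68 matches per kb. Junb had 2.06, Jun 1.62, Btg2 1.36, Atf3 0.843 and Fosl2 0.645 matches per kb. Of the 3 mRNAs that passed in Musashi IP, Jun was above that median and Btg2 and Fosl2 below it, and of those that did not pass, Fos and Junb were above it and Atf3 below. Among 3′ UTRs within 20% of its length, 95.5% held the motif for Fosb (2302 nt), 81.6% for Egr1 (1216 nt) and 50.8% for Jund (533 nt), the 3 genes without one. Fosl2 has the longest 3′ UTR of the 9, at 4653 nt, and UTRs of like length held a median of 9 matches against its 3.

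The core trinucleotide UAG, which every form of the motif contains, was present in all 9 3′ UTRs, from 2 matches in Junb and Jund to 52 in Fosl2, and in 97.3% of all those compared. The AU-rich pentamer AUUUA, which the form AUUUAGU of the motif overlaps, was also in all 9, against 72.0% of all genes. There were 8 pentamers in Fosl2, 5 in Btg2, 4 each in Fos and Jun, 3 in Atf3, 2 each in Junb and Egr1, and 1 each in Fosb and Jund. Among UTRs of like length, from 47.5% (for Junb) to 98.7% (for Fosl2) held the pentamer. Their median count was 7 for Fosl2, 3 for Btg2, 1 for Fos and 2 for Jun. For Atf3, Junb, Egr1, Fosb and Jund it was 2, 0, 2, 4 and 1. The longer element UUAUUUAUU occurred once in Fos and once in Fosl2, against 8.46% of all 3′ UTRs. For lengths within 20% of theirs the shares with this element were 4.94% for Fos and 19.4% for Fosl2. A match describes the sequence and is not a measured binding site, and no match says only that these letters are not in this annotated UTR.

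**Figure D1:**
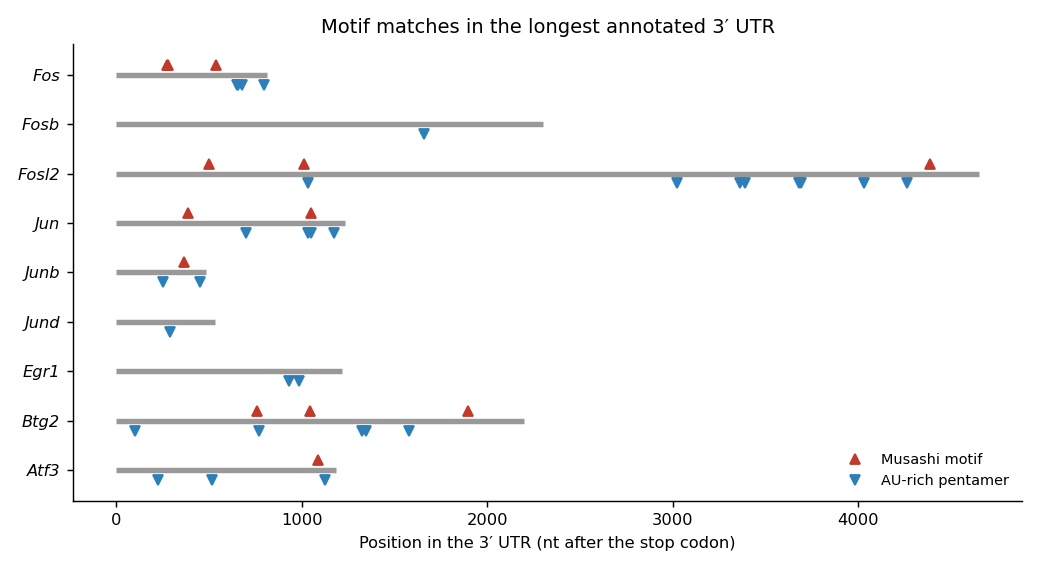
Positions of Musashi motif matches (red, pointing up) and of AUUUA pentamers (blue, pointing down) along the longest annotated 3′ UTR of each gene, in nt after the stop codon; the grey bar is the UTR. The bars run from 485 nt in Junb to 4653 nt in Fosl2, and Fosb, Jund and Egr1 have no red mark.

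Depth lay between 6.67 M and 13.0 M counts per library, where a single count was worth 0.0862 to 0.135 CPM (counts scaled to library size, after TMM scaling for composition). The deepest library, Musashi IP 6, had a scaling factor of 0.784, the lowest of the 10. No molecular identifiers are described, so counts are not independent molecules. Pituitary hormone cell markers summed to between 13750 and 51770 CPM in IgG and between 15190 and 40400 CPM in Musashi IP. Lhb, the luteinizing hormone beta subunit, had 0 counts in every library. How its reads were assigned is not given in the sources used here, and the 0 counts are not read as absence of the mRNA. The lysates came from separate occasions, and p-values measure the spread between these lysates.

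The counts of Jund, Jun and Junb are uncertain because each overlaps a gene on the opposite strand. Gm11175, an antisense gene with 0 counts in every library, covers 52.6% of the 1668 nt of Jund exon. In the same table, 121 of 122 genes lying wholly inside exons of a well counted gene on the opposite strand also had 0 counts (99.2%), as had 36 of 36 on the same strand. How the reads of such overlaps were assigned is not given in the sources used here. Jun shares 7.28% of its exon bases with Junos and Junb 7.52% with Prdx2. On exon bases that overlap no other gene, a length chosen after these counts were seen, Jund is left with 791 nt. Ratios within a gene do not use its length.

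Per kilobase of exon, the level in IgG ran from Btg2 at 48.1 ± 6.25 RPKM (CPM per kilobase; SD, n = 5) to Atf3 at 0.853 ± 0.593 RPKM. Between them, in RPKM of IgG libraries, lay Fos at 33.7 ± 5.99, Junb at 26.5 ± 6.03, Fosl2 at 22.8 ± 15.7 and Egr1 at 8.34 ± 3.12. Jund stood at 4.66 ± 1.79, Fosb at 4.62 ± 1.97 and Jun at 4.49 ± 1.39 RPKM. Whether bases that overlap another gene were counted is not known. Per kilobase of only the bases without such overlap, Jund came above Egr1 in the order, at 9.82 ± 3.77 RPKM, and Jun above Fosb, at 4.84 ± 1.50. On that scale only Btg2 and Fos, and Fosb and Atf3, were neighbours whose ranges over the 5 IgG libraries did not overlap. The ranges of the other neighbours overlapped, although within a library Fosl2 was above Jund and Egr1 above Jun in 5 of 5 IgG libraries. The other 4 pairs of neighbours changed order in at least 1 library. With the length of the longest transcript in place of all exons, Fosb stood at 7.62, Junb at 33.7 and Fosl2 at 33.8 RPKM, the last then above Junb.

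The Fos family gave both the largest and the smallest ratios to IgG. Fosl2 encodes Fra-2, a Fos protein without the strong activation domain of c-Fos. It had 343, 73.9, 408, 202 and 77.8 CPM in IgG libraries 2, 3, 5, 6 and 7, and 599, 108, 720, 890 and 154 CPM in the Musashi IP libraries of the same lysates. Every Musashi IP library was above the IgG library of its lysate, and the ranges of the groups overlapped because the male lysates 3 and 7 were low in both. The ratio of Musashi IP to IgG was 1.06 ± 0.21 on the log2 scale (SE), or 2.08-fold, with an adjusted p of 0.00873 (edgeR quasi-likelihood test with the lysate as a block, Benjamini-Hochberg adjustment over 20550 genes). The log2 ratio was 2.14 in lysate 6 and between 0.55 and 0.98 in the other 4. Without lysate 6 it was 0.79, with an adjusted p of 8.51e-05, and without the lysate block, which leaves the difference between lysates in the error, it was 1.16 with an adjusted p of 0.239 (edgeR).

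Fos encodes c-Fos, the partner that gives AP-1 dimers with Jun their high stability. Its levels were 76.3, 96.5, 90.0, 61.1 and 72.8 CPM in IgG and 74.6, 73.5, 100.3, 69.3 and 66.4 CPM in Musashi IP, in the same order of lysates. The 2 ranges overlapped over most of their length, and 2 of 5 lysates were higher in Musashi IP. The log2 ratio was -0.04 ± 0.11, with an adjusted p of 0.779 (edgeR). Fosb, whose product is a further Fos protein and whose short splice form gives the stable protein delta-FosB, had 24.5, 49.2, 30.9, 21.5 and 18.1 CPM in IgG. In Musashi IP it had 27.9, 35.9, 22.8, 20.6 and 14.9 CPM, higher than IgG in 1 of 5 lysates. The log2 ratio of Fosb was -0.21 ± 0.12 (adjusted p of 0.224, edgeR). Scaling by library totals, which lowered the median of all genes from -0.07 to -0.24, put Fosb at -0.39 with an adjusted p of 0.0497. It also passed as lower with length and GC offsets (-0.51, adjusted p of 0.0172) and with protein-coding genes only (-0.42, adjusted p of 0.0317). The medians of all genes were then -0.13 and -0.12. Genes passing as lower numbered 4068 of 20550 with library totals, 3153 of 20550 with the offsets and 2973 of 14200 with protein-coding genes only.

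Of the Jun family, Jun itself passed. Jun encodes c-Jun, the target of the JNK kinases. It had 22.0, 12.7, 12.5, 13.7 and 10.8 CPM in IgG and 28.0, 18.4, 22.3, 34.5 and 15.0 CPM in Musashi IP. All 5 lysates were higher in Musashi IP, with IgG 2 alone reaching into the Musashi IP range. The log2 ratio was 0.71 ± 0.16, or 1.63-fold, with an adjusted p of 0.0137 (edgeR). It was 0.68 with an adjusted p of 0.0657 without lysate 5, and 0.72 with an adjusted p of 0.0890 without the lysate block. Junb encodes a Jun protein that can antagonise c-Jun. It had 84.4, 56.2, 61.9, 50.0 and 52.3 CPM in IgG and 88.2, 52.9, 45.0, 53.2 and 40.6 CPM in Musashi IP, with lysate 2 the highest in both. Its log2 ratio was -0.15 ± 0.11 (adjusted p of 0.337, edgeR), and with protein-coding genes only it passed as lower at -0.36 (adjusted p of 0.0384). In that setting 2973 of 14200 genes passed as lower, and the median of all genes was -0.12.

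Jund encodes the Jun protein that resting cells express most constantly, and its mRNA is not counted among the immediate early ones. It was sparse, with 37 to 141 counts per library. The values were 12.6, 4.99, 7.91, 7.54 and 5.77 CPM in IgG and 16.9, 7.38, 8.75, 11.0 and 6.72 CPM in Musashi IP. All 5 lysates were higher in Musashi IP by a log2 ratio of 0.14 to 0.55. The fitted 0.38 ± 0.13 missed the threshold with an adjusted p of 0.0643 (edgeR), and it did not pass in any of the 14 alternatives tried.

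Btg2, a BTG/TOB family protein that binds the CCR4-NOT deadenylase and restrains proliferation, was the only one of the 9 whose groups did not overlap. It had 120, 161, 127, 119 and 133 CPM in IgG and 171, 181, 218, 324 and 213 CPM in Musashi IP. Over all genes tested, 9.70% had every Musashi IP library above every IgG library. The log2 ratio of Btg2 was 0.72 ± 0.16, or 1.64-fold, with an adjusted p of 0.0147 (edgeR), and without lysate 5 it was 0.70 with an adjusted p of 0.0664. Btg2 also had the smallest spread of the 9 in IgG, 13.0% of its mean, against 68.8% for Fosl2.

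Egr1, a zinc finger factor induced through the ERK pathway, had 59.4, 41.9, 33.9, 24.6 and 27.3 CPM in IgG. In Musashi IP it had 62.8, 39.0, 44.4, 67.4 and 37.1 CPM. Lysate 6, the lowest in IgG, was the highest in Musashi IP, a log2 ratio of 1.45, while the other 4 lay between -0.10 and 0.44. The fitted log2 ratio was 0.45 ± 0.20 (adjusted p of 0.130, edgeR), and without lysate 6 it was 0.20. Egr1 passed in a single alternative, with no low-count filter (0.46, adjusted p of 0.0427).

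Atf3, a stress-induced bZIP factor that represses many targets as a homodimer, was the sparsest of the 9, with 6 to 44 counts per library. It had 1.57, 0.809, 4.02, 1.74 and 1.05 CPM in IgG and 2.27, 0.651, 4.75, 4.21 and 1.55 CPM in Musashi IP. Lysate 5 was high and lysate 3 low in both groups. The log2 ratio was 0.55 ± 0.25 (adjusted p of 0.128, edgeR). The lysate ratios ran from -0.24 to 1.18, the highest in lysate 6, and without that lysate the log2 ratio was 0.32.

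**Figure D2:**
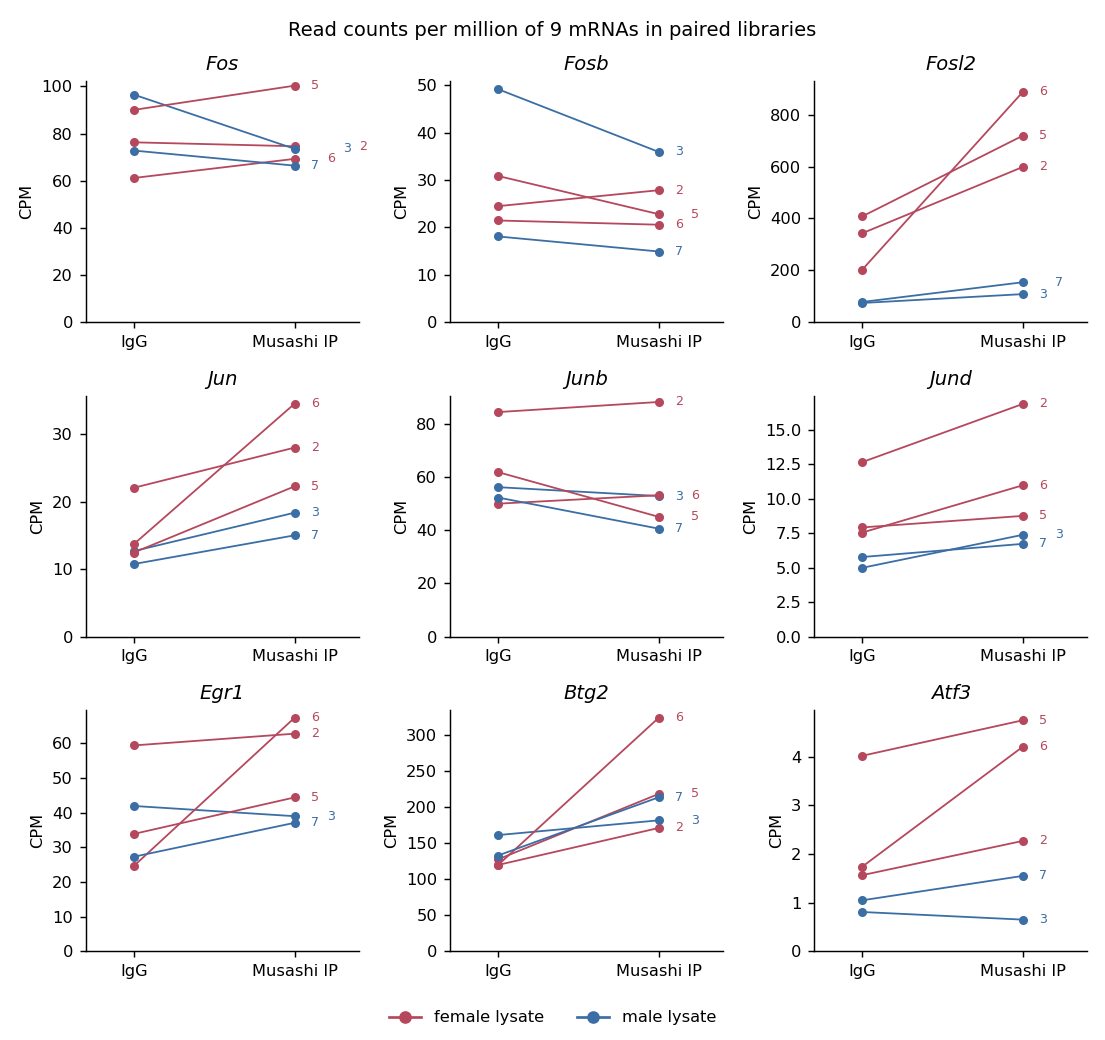
CPM of each gene in the IgG and Musashi IP library of each lysate, joined by a line and numbered by lysate; red lines are female and blue lines male lysates, and each panel has its own axis from 0. All 5 lines rise for Fosl2, Jun, Jund and Btg2, and the steepest Fosl2 line is lysate 6, from 202 to 890 CPM.

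Of the 9 mRNAs 3 passed as higher, 0 as lower and 6 did not pass, and their median log2 ratio was 0.45. Over all 20550 genes tested, which include noncoding and unannotated ones, 18.5% passed as higher and 8.40% as lower, with a median of -0.07. Of tested genes with a 3′ UTR of at least 100 nt, 3447 of 12944 with 2 or more exons passed as higher (median 0.10). Of those with 1 exon, 180 of 721 passed as higher (median 0.09). The 3 mRNAs that passed differed from Fos, Fosb and Junb in every lysate. The lowest ratio of Fosl2, Jun and Btg2 was 0.34, 0.17, 0.78, 1.32 and 0.47 in lysates 2, 3, 5, 6 and 7, and the highest ratio of Fos, Fosb and Junb was 0.18, -0.09, 0.16, 0.18 and -0.13. These sets were formed after the ratios were seen, and the gap is a description. Lysate 6 gave the highest ratio for 7 of the 9 genes, and lysate 3 the lowest for 6. The shares of all genes with such an order were not compared. The median ratio of the 9 genes was 1.18 in lysate 6 and between -0.09 and 0.44 in the others, while the median of all genes was between -0.07 and 0.00331 in every lysate. TMM scaling keeps the median of all genes near 0, so it cannot show whether other mRNAs were also high in lysate 6. Without lysate 6 the same count of 3 passed, with a median of 0.32, while without lysate 5 and without the lysate block 1 passed. Over all genes the calls fell as well. Genes passing as higher numbered 1676 of 20669 without lysate 5 and 2407 of 20550 without the block, against 3804 of 20550 in the main test. Whether the depth and low scaling factor of Musashi IP 6 had a part in its ratios was not tested.

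**Figure D3:**
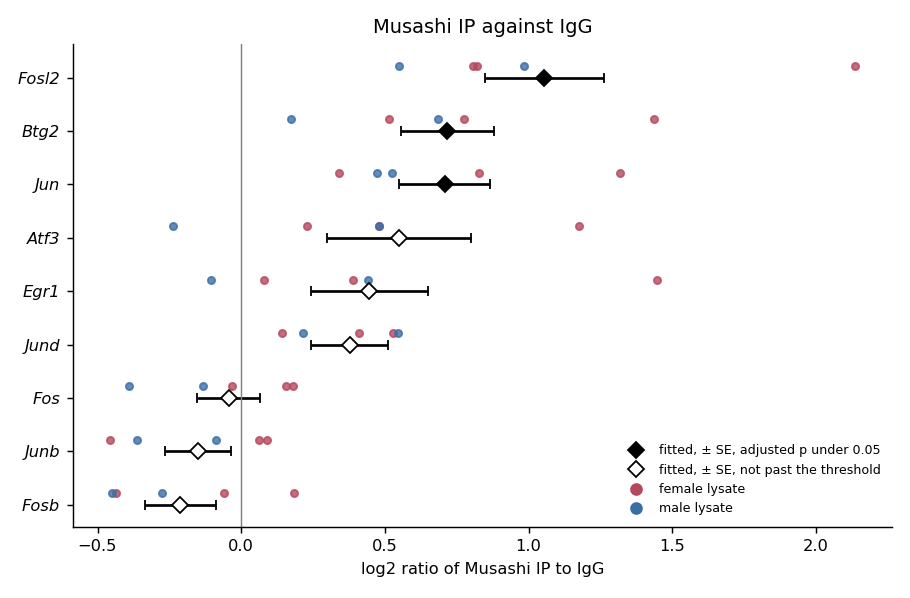
Log2 ratio of Musashi IP to IgG for the 9 genes, ordered by the fitted value (diamond, ± SE; filled where the adjusted p was under 0.05), with the ratio of each female (red) and male (blue) lysate above it. Fosl2, Btg2 and Jun are filled at 1.06, 0.72 and 0.71, and Fos, Junb and Fosb lie at or below 0.

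Markers of other cell types were measured beside these ratios. Of 14 hormone cell markers 5 passed as higher in Musashi IP (35.7%) and 0 as lower, against 18.5% and 8.40% of all genes tested. Of 7 stem and folliculostellate markers 3 passed as higher, Fstl1 (2.01 ± 0.29), Sox9 (1.24 ± 0.31) and Aldh1a2 (0.62 ± 0.13), named here after their values were seen. The other 4 did not pass: Sox2 (0.55 ± 0.19), S100b (0.02 ± 0.20), Vim (-0.14 ± 0.23) and Cdh26 (-0.20 ± 0.14). That list summed to between 46.2 and 86.9 CPM in IgG and between 94.5 and 146 CPM in Musashi IP. Of 9 immune markers 2 passed as lower, and of 4 tested erythroid markers 3 passed as lower, with sums of 461 to 1248 CPM in IgG and 271 to 688 CPM in Musashi IP. The immune count was 0 without lysate 5 or the block and 1 without lysate 7, and the erythroid count 1 without lysate 2, 5 or 7 and 0 without the block. The stem count was 1 without lysate 7. Of 8 endothelial and 9 mural or fibroblast markers 0 passed in the main edgeR test. Without lysate 3, however, 4 mural markers and 1 endothelial marker were lower, and without lysate 2 there were 2 mural markers higher. With library totals, the 2 CPM filter, length and GC offsets or protein-coding genes only, lower calls numbered 1 for endothelial and 2 for mural markers. With DESeq2 or with no low-count filter, 1 endothelial marker was lower. Of 4 posterior lobe and neural markers 1 passed as higher, and 0 without lysate 3, 5 or 7. The part of these cell types in the ratios of the 9 genes was not tested.

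Other genes of the same pathways were counted from lists of known members, chosen with earlier results of these data known. Over all genes tested 18.5% passed as higher and 8.40% as lower. Without lysate 5, without lysate 7 and without the block, 1676 of 20669, 2288 of 20548 and 2407 of 20550 genes passed as higher. Among those with a 3′ UTR of at least 100 nt and 2 or more exons, 3447 of 12944 passed as higher. Of 9 tested AP-1 related bZIP genes, out of 14 listed, 4 passed as higher (44.4%) and 0 as lower, with a median log2 ratio of 0.21. Among them were Mafk, a small Maf protein (1.21 ± 0.22), and the Jun dimer partners Atf2 (0.75 ± 0.19) and Atf7 (0.36 ± 0.11), each with adjusted p under 0.05 in edgeR. Without lysate 5 the 4 fell to 1. Atf7 did not pass with library totals (0.19, adjusted p of 0.129), with length and GC offsets (0.20, adjusted p of 0.126) or with protein-coding genes only (0.16, adjusted p of 0.186). Nor did Atf7 pass with DESeq2 or the 2 CPM filter, without lysate 3, 5 or 7, or without the block. Atf2 did not pass without lysate 5 (0.75, adjusted p of 0.077, edgeR).

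Of 46 other immediate early genes tested, out of 49, 13 passed as higher (28.3%) and 1 as lower. Of all genes tested, which include noncoding ones, 18.5% and 8.40% did. Among those with a 3′ UTR of at least 100 nt and 2 or more exons, 3447 of 12944 passed as higher, a share close to that of this list. Their median was 0.26. Ppp1r15a, the GADD34 subunit that directs dephosphorylation of eIF2 alpha, rose from 14.6 ± 4.93 to 52.2 ± 32.1 CPM (SD, n = 5), a log2 ratio of 1.70 ± 0.29 with an adjusted p of 0.00547 (edgeR). Rhob, a small GTPase, stood at 1.17 ± 0.31, Mcl1, an antiapoptotic BCL2 relative, at 1.03 ± 0.17, and Ccn1, a matricellular protein, at 0.92 ± 0.23. Rhob did not pass without lysate 3 or 5 (adjusted p of 0.058 and 0.0997, edgeR). Ccn1 did not pass without lysate 5 or 7 or without the block (adjusted p of 0.072, 0.062 and 0.34, edgeR). The gene that fell was Klf2, a Krüppel-like factor, at -1.19 ± 0.37 with an adjusted p of 0.0436 (edgeR). Klf2 did not pass when lysate 2, 5, 6 or 7 was left out (adjusted p of 0.142, 0.122, 0.0662 and 0.0754) or when the lysate block was dropped (0.142). The 13 higher genes fell to 3 without lysate 5 and to 6 without lysate 7 or without the block. Those passing as lower rose to 4 with length and GC offsets and to 5 with protein-coding genes only.

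Of 31 kinases and transcription regulators upstream of these genes, mostly activators but also the repressors Hdac5 and Elk3, 13 passed as higher (41.9%) and 0 as lower. Their median was 0.28, and 18.5% of all genes tested passed as higher. Mrtfb, a coactivator of serum response factor, had a log2 ratio of 1.01 ± 0.15 and Mapk14, the p38 alpha kinase, one of 0.95 ± 0.17. Mapk9, the JNK2 kinase, stood at 0.94 ± 0.17 and Atf1, a CREB relative, at 0.82 ± 0.11, each above IgG in 5 of 5 lysates with adjusted p under 0.05 in edgeR. The 13 fell to 6 without lysate 5 and to 7 without lysate 7 or the block, and 3 members passed as lower with library totals or length and GC offsets and 4 with protein-coding genes only. Of 14 tested BTG, TOB and CCR4-NOT genes, out of 15, 2 passed as higher (14.3%, below the share of all genes) and 0 as lower. These were Btg1 (0.66 ± 0.20), the closest relative of Btg2, and Tob2 (0.42 ± 0.12). Neither passed without lysate 3, 5 or 7 or without the block. With library totals, length and GC offsets and protein-coding genes only, 2, 3 and 3 genes of that list passed as lower.

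**Figure D4:**
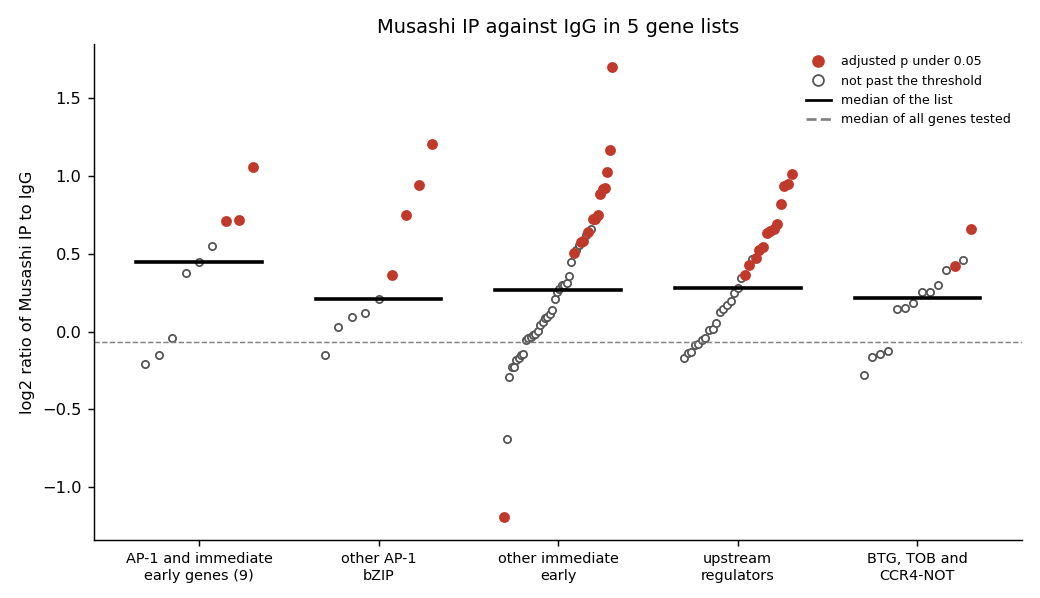
Log2 ratio of Musashi IP to IgG for every tested gene of 5 lists (points; red where the adjusted p was under 0.05), with the median of each list (black line) and of all genes (dashed line). The medians lie at 0.45 for the 9 genes, between 0.21 and 0.28 for the other lists and at -0.07 for all genes.

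Fosl2 also differed between the sexes. In IgG it averaged 318 CPM in the 3 female lysates and 75.8 CPM in the 2 male ones, a log2 ratio of 2.06 ± 0.27 or 4.17-fold, with an adjusted p of 0.00124 (edgeR, 20987 genes). In Musashi IP it averaged 736 and 131 CPM, a log2 ratio of 2.47 ± 0.29 or 5.53-fold, with an adjusted p of 0.00172 (edgeR, 21238 genes). The lowest female library of each group, at 202 and 599 CPM, was above the highest male one, at 77.8 and 154 CPM. The share of all genes with the sexes apart in this way was not counted. In IgG the adjusted p was 0.0774 without lysate 3 and 0.0627 without lysate 7, each of which leaves a single male library assumed to vary like the females, at log2 ratios of 2.03 and 2.10. In whole tissue, fewer cells of a type and less RNA per cell cannot be told apart.

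Fosl2 was the 1 of 9 genes that passed in IgG and in Musashi IP, where 4.50% and 2.84% of all genes tested did. Atf3 had the next largest differences, with 2.44 CPM in female and 0.929 CPM in male IgG libraries on average and a log2 ratio of 1.36 ± 0.57 (adjusted p of 0.258, edgeR). In Musashi IP its log2 ratio was 1.70 ± 0.50 (adjusted p of 0.115, edgeR), and it passed with DESeq2 (adjusted p of 0.0478), with no low-count filter (0.00971) and without lysate 2 (0.0389). Jund stood at 0.79 ± 0.32 in IgG and 0.78 ± 0.35 in Musashi IP (adjusted p of 0.239 and 0.303, edgeR), and Jun at 0.45 ± 0.29 and 0.74 ± 0.26 (0.504 and 0.191). The other 5 genes had log2 ratios between -0.40 and 0.26 in IgG and between -0.11 and 0.60 in Musashi IP, none past the threshold.

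Some hormone cell markers differed with sex in the same IgG libraries, 1 of the 14 tested passing as higher in females and 4 as lower. In Musashi IP only Prl, as higher, and Tshb, as lower, passed among them (edgeR). Prl, the lactotrope hormone, averaged 23570 CPM in female and 2442 CPM in male libraries, a log2 ratio of 3.27 ± 0.52 (adjusted p of 0.00442, edgeR). Fshb (-2.43), Tshb (-1.42), Ghrhr (-1.29) and Pcsk2 (-1.20) were lower in females, and the fibroblast collagen Col1a2 was higher (1.45). Col1a2 (673 and 246 CPM on average) was the 1 of 9 mural or fibroblast markers that passed in IgG, and 0 passed in Musashi IP (edgeR). The sum of the 9, between 606 and 1326 CPM in female and between 291 and 415 CPM in male IgG libraries, includes Col1a2. The part of these cells in the sex difference of Fosl2 was not tested. Of the 46 other immediate early genes 4 passed as higher in female IgG and 0 as lower, where 4.50% of all genes tested passed. They were the oncogene Myc (28.6 and 5.39 CPM, 2.41 ± 0.34), the stress gene Gadd45g (2.79 ± 0.68), the salt-inducible kinase Sik1 (1.16) and the NF-kappaB inhibitor Nfkbia (1.28). Myc and Gadd45g alone of the 4 also passed in Musashi IP (edgeR). Of the 31 upstream regulators 2 passed as higher in females, the ribosomal S6 kinase Rps6ka2 (583 and 122 CPM, 2.26) and Elk3 (0.92), and 0 as lower. These 6 genes and the sex-differing markers are named after their values were seen.

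**Figure D5:**
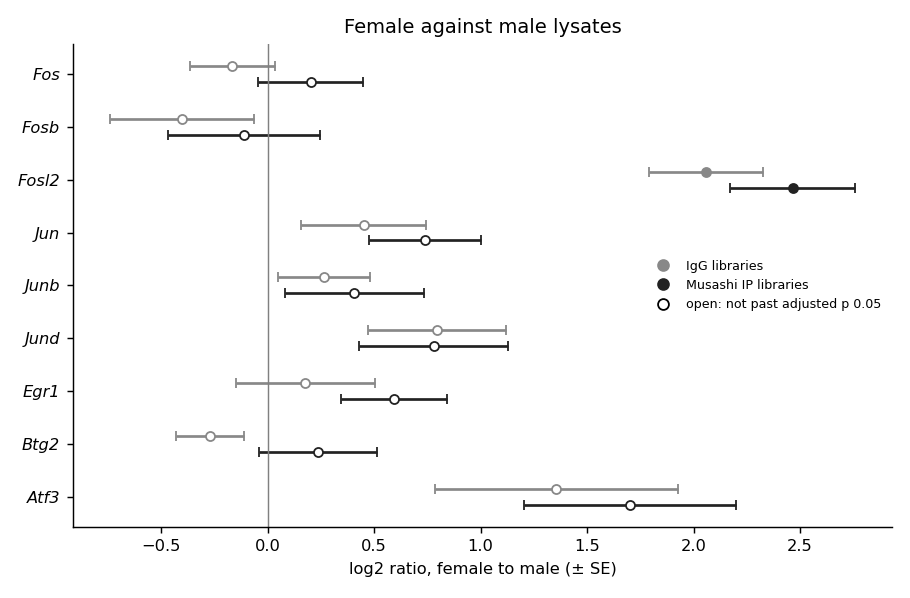
Log2 ratio of female to male lysates (± SE) for the 9 genes in IgG (grey) and Musashi IP (black) libraries, with open points where the adjusted p was not under 0.05. Fosl2 alone is filled, at 2.06 and 2.47, and Atf3 is next at 1.36 and 1.70 with wide errors.

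The ratio to IgG itself was not shown to differ between the sexes. Of 22601 genes 0 passed in the test of the female minus male difference of the antibody effect, or 0% (edgeR; 295 at an unadjusted p under 0.05; 0 and 66 by DESeq2). For Fosl2 the log2 ratio was 1.17 ± 0.24 in females and 0.72 ± 0.29 in males, a difference of 0.45 ± 0.38. The same difference was 0.45 ± 0.29 for Btg2, 0.44 ± 0.38 for Egr1, 0.34 ± 0.22 for Fos and 0.30 ± 0.32 for Jun. It was above 0 for 8 of the 9 genes and -0.04 for Jund, with a median of -0.02 over all genes, and every adjusted p was 1 (edgeR). The 9 genes were measured in the same 5 lysates, so their signs are not independent. The female lysates include lysate 6, and without it the differences of Fosl2 and Btg2 were 0.04 ± 0.18 and 0.22 ± 0.21 (adjusted p of 1 for each, edgeR). Those of Egr1, Jun and Atf3 were then 0.07, 0.07 and 0.12, and those of Fos, Fosb, Junb and Jund 0.33, 0.25, 0.04 and -0.09.

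By the difference in pattern over the 10 libraries (root mean square of the centred log2 CPM, among 12729 genes with at least 8 CPM), the gene closest to Btg2 was Cbl at 0.0658, where the median gene was at 0.509. Closest to Jun was Frmpd4 (0.0998), to Junb Eif3g (0.0937), to Jund Slc25a39 (0.118), to Egr1 Lamtor4 (0.113), to Fosb Sec31b (0.224), to Fosl2 Hapln4 (0.255) and, among 12730 genes, to Atf3 Dclk1 (0.303). The 5 closest to Fos were Prox2, Tango6, Arid3b, Zbtb8os and Pigb, at 0.144 to 0.160. None of the closest genes was another of the 9, of which Atf3 was below the CPM minimum. Within the 9, the nearest pair was Jun and Egr1 at 0.251, and the farthest Fosb and Fosl2, from the same family, at 1.44.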

How the data were processed

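From 5 split pituitary lysates, RNA precipitated with the Musashi antibody pool or with rabbit IgG was sequenced with a stranded total RNA kit. The authors deposited raw read counts per Ensembl gene for 55416 genes. Per the submitters' processing notes, the tools were FastQC 0.11.8, Trimmomatic 0.39 and STAR 2.7.1a on GRCm39. The program that counted, its annotation and its strand setting are not stated in the sources used here.

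The members and gene lists were chosen with earlier results of these data known. Named were all 9 members, up to 4 genes per direction of largest absolute change past the threshold from each list that is not a marker list, marker genes a result turns on, the genes closest in pattern, and overlapping genes; 1 listed gene is not reported here. Symbols, lengths and 3′ UTRs came by gene ID from GENCODE M21, built on GRCm38, so no coordinates are given, and 52083 IDs (94.0%) matched. IDs without a match (0.741% to 4.05% of counts per library) were kept in totals and tests. All columns of the table mapped to a sample.

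Tests ran on the counts in R 4.3.3 with edgeR 4.0.16 (filterByExpr, TMM, glmQLFit, glmQLFTest, Benjamini-Hochberg at 0.05). The antibody comparison fitted all 10 libraries, blocked by lysate, leaving 4 residual degrees of freedom. The sex difference of that ratio was tested as an interaction (3 residual degrees of freedom). The sexes were compared within 5 libraries of 1 antibody. The SE is the log2 fold change divided by the square root of F. Lysate ratios used a prior count of 2.

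The protocol states that each lysate was split, so its number pairs the libraries. Deviations from the group means of same-numbered libraries correlated at 0.523, 0.679, 0.602, 0.186 and 0.778 in lysates 2, 3, 5, 6 and 7. No 2 libraries were identical, and the highest correlation of log CPM was 0.982. Alternatives were other scalings, filters and tools (DESeq2 1.42.0, limma 3.58.1), length and GC offsets, protein-coding genes only, no block and each lysate left out.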

Additional observations from a re-analysis of the deposited data

Results flagged for a closer look

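In 5 of 27 groups of 5 values (each gene's CPM in IgG, in Musashi IP and its lysate ratios), 1 value stood apart from the other 4 by more than 0.71 of the whole range, the critical value of Dixon's test for 5. Chance alone marks about 1 group in 20. Fos stood at 100.3 CPM in Musashi IP 5, above the other 4 Musashi IP libraries. The log2 ratio of Fosl2 was 2.14 in lysate 6. Jun stood at 22.0 CPM in IgG 2, Junb at 88.2 CPM in Musashi IP 2, and Atf3 at 4.02 CPM in IgG 5. Of these 5 values 4 came from female lysates 2 and 5 and 1 from female lysate 6. The values of the Fosl2 ratio without lysate 6 stand with its result.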

How the results depend on the processing

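Among the 9 genes and the named genes of the other lists, none that passed changed sign in an alternative, whereas counts of lists did turn, such as 2 mural markers higher without lysate 2 and 4 lower without lysate 3. The calls of Fosl2 and Btg2 were kept in 13 of 14 alternatives and that of Jun in 12. Without the lysate block 2407 genes were higher and 176 lower, and 1 of the 9 genes was higher, which was Btg2. Lower genes numbered 4068 of 20550 with library totals, 3214 of 18379 with a 2 CPM filter, 3153 of 20550 with length and GC offsets and 2973 of 14200 with protein-coding genes only. With library totals and with the offsets 1 of the 9 was lower (Fosb), and with protein-coding genes only 2 (Fosb and Junb). Leaving out 1 lysate gave 1676 to 4651 higher and 187 to 2101 lower genes and 1 to 3 of the 9 higher, with the lowest counts without lysate 5. Lysate 7 was the next, at 2288 higher and 597 lower. For the sexes in IgG, 1947 genes differed with no filter and 172 to 1354 with a lysate left out, with 0 or 1 of the 9. In Musashi IP, 1059 differed with DESeq2, 1679 with no filter and 219 to 999 with a lysate left out, and Atf3 made 2 of the 9 with DESeq2, with no filter and without lysate 2. The cause was not tested. Low counts limit Atf3 and Jund. There was 1 fewer male pair than the protocol names, a single table of unstated counting, and a control of IgG rather than input RNA.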
